A study of Mus musculus with 8 samples.

Results

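The mouse *Cyp3a* genes encode the cytochrome P450 3A family. The 8 described here, *Cyp3a11*, *Cyp3a13*, *Cyp3a16*, *Cyp3a25*, *Cyp3a41a*, *Cyp3a41b*, *Cyp3a44* and *Cyp3a59*, were chosen by gene symbol from the 24940 genes of the deposited liver count table. All 8 were among the 12340 genes that passed the expression filter and were tested. Liver mRNA was sequenced from 4 FxrKO and 4 Bcl6LKOFxrKO C57BL/6 males. The FxrKO livers carried the genotype Bcl6(fl/fl), FXR(homo), that is, floxed *Bcl6* without Cre and loss of *Fxr* (*Nr1h4*) in the whole body. The Bcl6LKOFxrKO livers carried Albumin-Cre in addition, which acts in hepatocytes, so loss of *Fxr* was shared by both groups and only *Bcl6* differed by design. The comparison asks which genes change with loss of the repressor BCL6 in hepatocytes that already lack FXR. The study reported higher serum and liver bile acids and more collagen staining of the liver in Bcl6LKOFxrKO than in FxrKO males. The part of these conditions in the differences below was not tested. Livers with intact *Fxr* were not analysed here. The study's methods state that mice were fed freely or fasted for 4 hours unless noted otherwise, without saying which for these libraries, and give no age for them in the sources used here.

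CYP3A enzymes are haem-containing monooxygenases of the endoplasmic reticulum that hydroxylate drugs, steroids and bile acids, and they take their electrons from the reductase POR. In hepatocytes their transcription is driven by the xenobiotic receptors PXR (*Nr1i2*) and CAR (*Nr1i3*), which pair with RXR, on a background of liver factors such as HNF4A, C/EBP and FOXA proteins. *Cyp3a11* is the main form of adult mouse liver, *Cyp3a13* is also made in the intestine, *Cyp3a41a*, *Cyp3a41b* and *Cyp3a44* are known for higher expression in females, and *Cyp3a16* for expression around birth. BCL6 is a transcriptional repressor that is regulated by growth hormone, acts against STAT5 in hepatocytes and is more abundant in male liver.

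All counts given are reads with a single genomic location on the exons of a gene, and CPM are counts relative to library sizes that were adjusted by the TMM method. The totals on genes were between 7586241 and 10056721 counts in FxrKO livers 1 to 4, and between 9156775 and 11839503 in Bcl6LKOFxrKO livers 5 to 8. At these depths 3 counts, the limit that a count of 0 allows, came to between 0.272 and 0.374 CPM, for counting error only. *Bcl6* was at 56.2, 65.1, 21.1 and 55.6 CPM in the FxrKO livers and at 11.9, 4.61, 5.54 and 7.71 CPM in the Bcl6LKOFxrKO livers, so the targeted gene followed the labels in all 8 livers. *Nr1h4* was still counted in both groups, at 59.9 ± 2.46 and 43.4 ± 3.69 CPM (SD, n = 4), and its gene count alone does not check the *Fxr* deletion. Hepatocyte transcripts led the libraries, with *Alb* at 44495 ± 4416 CPM in FxrKO and 135310 ± 8111 CPM in Bcl6LKOFxrKO livers (SD, n = 4). *Alb* took up more of the Bcl6LKOFxrKO libraries, and the scaling between libraries mattered. The median log2 fold change of all tested genes was 0.01 with TMM and -0.15 with total counts alone. Of the genes that passed, 45.5% were lower with TMM and 67.8% with total counts alone.

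Of the 8 genes, 7 lie within 677 kb on mm10 chromosome 5, and *Cyp3a13* lies 7515 kb away on the same chromosome. The upstream sequences of these 7 fell into 2 groups of related letters, while that of *Cyp3a13* was close to none of them. They are shown because close relatives within each group differed in the counts. Each line gives the 250 bases before the annotated start site from RefSeq (build GRCm38.p6, the assembly that mm10 names), 5′ to 3′ on the gene's strand. Capitals mark TGTTTAC, the core bound by FOXA proteins, and CAAAGTCCA, part of a direct repeat of the kind bound by HNF4A and related receptors.
Cyp3a11 (chr5:145879855-145880104, minus strand): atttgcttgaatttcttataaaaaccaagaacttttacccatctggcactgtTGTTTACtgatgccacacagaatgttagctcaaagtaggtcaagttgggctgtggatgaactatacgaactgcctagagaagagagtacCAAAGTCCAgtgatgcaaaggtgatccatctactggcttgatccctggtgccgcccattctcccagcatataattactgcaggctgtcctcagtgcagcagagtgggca
Cyp3a16 (chr5:145469724-145469973, minus strand): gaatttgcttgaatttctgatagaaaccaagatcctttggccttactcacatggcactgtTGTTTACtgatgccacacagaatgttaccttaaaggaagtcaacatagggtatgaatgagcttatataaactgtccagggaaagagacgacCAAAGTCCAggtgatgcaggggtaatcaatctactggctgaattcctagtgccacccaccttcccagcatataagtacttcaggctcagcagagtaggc
Cyp3a41a (chr5:145720137-145720386, minus strand): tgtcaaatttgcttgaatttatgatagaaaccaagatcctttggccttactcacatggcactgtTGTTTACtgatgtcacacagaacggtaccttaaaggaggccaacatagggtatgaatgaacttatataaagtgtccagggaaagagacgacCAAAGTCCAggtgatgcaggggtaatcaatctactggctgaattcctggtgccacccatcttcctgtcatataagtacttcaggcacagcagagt
Cyp3a44 (chr5:145805875-145806124, minus strand): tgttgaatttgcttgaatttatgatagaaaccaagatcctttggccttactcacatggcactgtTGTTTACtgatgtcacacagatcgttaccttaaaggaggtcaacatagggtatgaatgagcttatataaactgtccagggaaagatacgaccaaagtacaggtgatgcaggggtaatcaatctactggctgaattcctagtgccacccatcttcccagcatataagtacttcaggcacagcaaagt

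The upstream sequence of *Cyp3a41b* (chr5:145584731-145584980, minus strand) shared 249 of 250 letters with that of *Cyp3a41a*. *Cyp3a16* and *Cyp3a44* shared 95.9% of aligned letters, *Cyp3a41a* and *Cyp3a44* 94.4%, and *Cyp3a11* and *Cyp3a16* 83.3%. All motifs were searched on both strands, and none of the matches given here overlapped another. TGTTTAC was present in these 5 genes and in 3.17% of 32841 RefSeq mouse promoters cut to the same length. CAAAGTCCA was present in *Cyp3a11*, *Cyp3a16*, *Cyp3a41a* and *Cyp3a41b*, against 0.384% of all promoters. At the aligned place *Cyp3a44* differed from *Cyp3a41a* by 1 letter, C7A, counted from 1 at the 5′ end of the run. A match is a description of the letters and no measurement of binding.

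*Cyp3a25* and *Cyp3a59*, which lie next to each other in opposite directions, shared 95.6% of their 250 letters. Here the capitals mark AAAGGTCA, a half-site bound by several nuclear receptors.
Cyp3a25 (chr5:146009618-146009867, minus strand): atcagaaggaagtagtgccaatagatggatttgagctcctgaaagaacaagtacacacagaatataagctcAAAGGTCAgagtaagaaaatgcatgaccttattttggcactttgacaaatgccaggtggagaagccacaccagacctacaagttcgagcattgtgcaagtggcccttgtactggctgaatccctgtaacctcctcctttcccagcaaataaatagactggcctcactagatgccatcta
Cyp3a59 (chr5:146079008-146079257, plus strand): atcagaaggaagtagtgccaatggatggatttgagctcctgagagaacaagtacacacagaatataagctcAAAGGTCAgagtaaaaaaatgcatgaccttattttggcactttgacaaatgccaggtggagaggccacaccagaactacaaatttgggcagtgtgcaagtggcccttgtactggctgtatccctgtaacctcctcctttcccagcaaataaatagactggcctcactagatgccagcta
AAAGGTCA was present in these 2 genes alone of the 8 and in 1.34% of all promoters. The palindrome TTCNNNGAA, which both STAT5 and BCL6 can bind, was in none of the 8 windows and in 7.02% of all promoters. TTCCTAG, close to the BCL6 consensus, was in *Cyp3a16* and *Cyp3a44* and in 3.86% of all promoters.

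The family was not changed as a block. Of the 8 genes, 5 rose in Bcl6LKOFxrKO livers (edgeR's quasi-likelihood test, adjusted p under 0.05), where 16.2% of all tested genes rose. *Cyp3a25* alone fell, where 13.5% of all tested genes fell. Together 6 of 8 passed the test, against 29.7% of all tested genes. *Cyp3a11* and *Cyp3a13* did not pass. The 2 groups of livers did not overlap for 5 of the 8, against 31.3% of all tested genes. *Cyp3a16*, *Cyp3a41a*, *Cyp3a41b* and *Cyp3a44* passed the expression filter only through the Bcl6LKOFxrKO livers, so that if tested at all they had to differ, and their share is no support for a change of the family. The livers are bulk tissue, in which fewer cells of a type and less RNA per cell cannot be told apart.

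**Figure D1:**
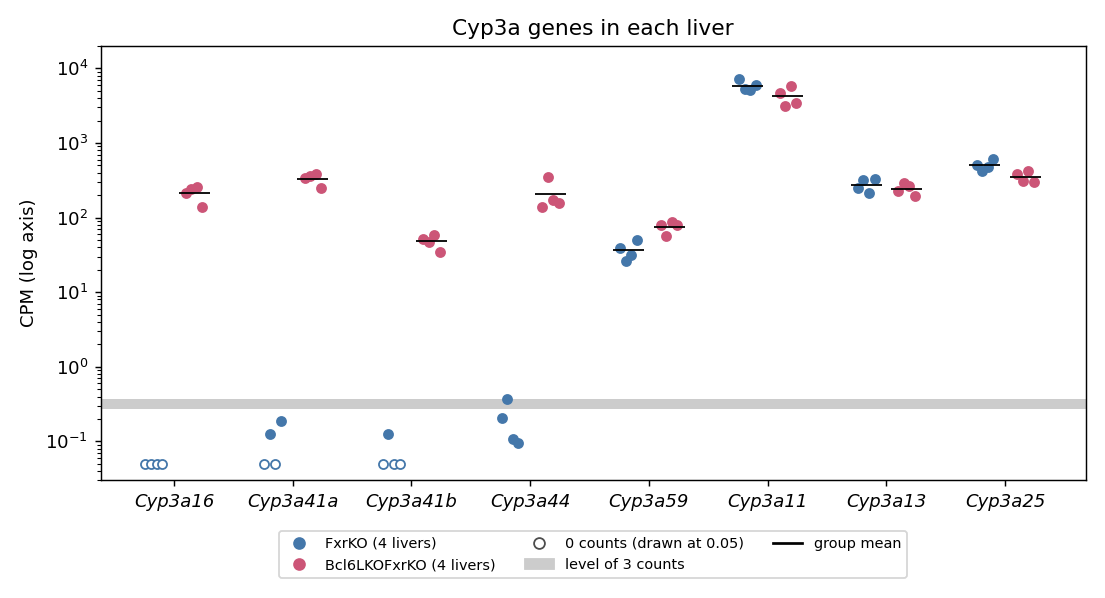
CPM of each *Cyp3a* gene (log axis) in 4 FxrKO livers (blue) and 4 Bcl6LKOFxrKO livers (red), with lines at group means above 1 CPM, open circles for livers with 0 counts and a grey band at the level of 3 counts. *Cyp3a16*, *Cyp3a41a*, *Cyp3a41b* and *Cyp3a44* sit at 3 counts or fewer in FxrKO livers, *Cyp3a59* is higher in the Bcl6LKOFxrKO livers without overlap, and the groups overlap for *Cyp3a11*, *Cyp3a13* and *Cyp3a25*.

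*Cyp3a16* (NM_007820, chr5:145436309-145469723) had 0 counts in each of the FxrKO livers and 2131, 1976, 2627 and 1552 counts in Bcl6LKOFxrKO livers 5 to 8. Its mean in the Bcl6LKOFxrKO livers was 213 ± 50.8 CPM (SD, n = 4), at least 658-fold higher than 3 counts per FxrKO library (edgeR adjusted p = 6.99e-08). *Cyp3a16* was therefore below detection in the FxrKO group and among the well counted genes in every Bcl6LKOFxrKO liver, with liver 8 lowest.

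*Cyp3a41a* (NM_017396, chr5:145694049-145720136), a female-biased form, had 0, 1, 0 and 2 counts in FxrKO livers 1 to 4. It had 3365, 2948, 3929 and 2739 counts in Bcl6LKOFxrKO livers 5 to 8. With 332 ± 58.3 CPM (SD, n = 4) it was the most counted of the 4 genes that FxrKO livers lacked, at least 1027-fold higher than 3 counts per FxrKO library (edgeR adjusted p = 5.90e-11). The annotation in the table lists its transcript at 2 places, so its counts may be summed over both. Its near-identical copy *Cyp3a41b* (NM_001105159, chr5:145558664-145584730) had 0, 1, 0 and 0 counts in the FxrKO livers and 511, 393, 601 and 380 counts in the Bcl6LKOFxrKO livers. *Cyp3a41b* averaged 48.0 ± 10.1 CPM (SD, n = 4), at least 149-fold higher than the 3-count level (edgeR adjusted p = 1.25e-09). Both copies were highest in liver 7 and lowest in liver 8, with no overlap between the genotypes.

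*Cyp3a44* (NM_177380, chr5:145773983-145805874), also female-biased, had 2, 3, 1 and 1 counts in FxrKO livers 1 to 4 and 1374, 2917, 1793 and 1727 counts in Bcl6LKOFxrKO livers 5 to 8. Its mean of 206 ± 99.7 CPM (SD, n = 4) in Bcl6LKOFxrKO livers was at least 637-fold higher than the 3-count level (edgeR adjusted p = 7.00e-07). It varied most of the 8 genes within that group, with a coefficient of variation of 48.5%. Liver 6 stood above the others, whereas *Cyp3a16*, *Cyp3a41a* and *Cyp3a41b* were highest in liver 7. The ratio of *Cyp3a44* to *Cyp3a16* counts was accordingly 0.645, 1.48, 0.683 and 1.11 in livers 5 to 8, while that of *Cyp3a41a* to *Cyp3a41b* was 6.59, 7.50, 6.54 and 7.21.

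*Cyp3a59* (NM_001105160, chr5:146079258-146113283) was the only one of the 5 risen genes that FxrKO livers also expressed. It had 377, 209, 298 and 526 counts in FxrKO livers and 786, 469, 889 and 880 counts in Bcl6LKOFxrKO livers. In CPM it went from 36.7 ± 10.2 to 75.5 ± 12.9 (SD, n = 4), with every Bcl6LKOFxrKO liver above every FxrKO liver. The log2 fold change was 1.04 (SE 0.19, edgeR adjusted p = 0.00133). An exact two-sided permutation test over the 70 orderings of the 8 livers gave p = 0.029, the smallest it can give with 4 against 4 livers.

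*Cyp3a25* (NM_019792, chr5:145977194-146009617), the neighbour of *Cyp3a59* and its closest relative by sequence, went the other way. It had 4888, 3345, 4408 and 6452 counts in FxrKO livers and 3788, 2536, 4292 and 3281 counts in Bcl6LKOFxrKO livers. Its level went from 502 ± 80.8 to 351 ± 58.0 CPM (SD, n = 4), and liver 7 reached the level of liver 2, the lowest FxrKO liver. The log2 fold change was -0.52 (SE 0.15, edgeR adjusted p = 0.0199). This call rested on liver 4, the highest FxrKO liver: without it the log2 fold change was -0.41 and the adjusted p was 0.0693. The exact permutation test over all 8 livers gave p = 0.057.

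*Cyp3a11* (NM_007818, chr5:145854607-145879854), the main hepatic form, had 68520, 42447, 48194 and 63441 counts in FxrKO livers and 47005, 26146, 59959 and 37605 counts in Bcl6LKOFxrKO livers. At 5896 ± 893 and 4285 ± 1239 CPM (SD, n = 4) it was the most counted member in all 8 livers, and rank 16 of all tested genes by CPM in the FxrKO group. Its log2 fold change was -0.46 (SE 0.19), which did not pass (edgeR adjusted p = 0.0891, exact permutation p = 0.114). Liver 7, at the level of the FxrKO livers, decided this: without it the log2 fold change was -0.64 and the adjusted p was 0.0200. With total counts alone the adjusted p was 0.0355.

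*Cyp3a13* (NM_007819, chr5:137892933-137921619), the member outside the cluster, was at 276 ± 54.5 CPM in FxrKO and 245 ± 41.7 CPM in Bcl6LKOFxrKO livers (SD, n = 4), from 2364, 2527, 2004 and 3473 counts against 2276, 2388, 2742 and 2149. The ranges overlapped over most of their length. The log2 fold change was -0.17 (SE 0.16, edgeR adjusted p = 0.449, exact permutation p = 0.4).

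The summed counts of the 8 genes hid these opposite movements. The family total was 7914, 6057, 5893 and 6982 CPM in FxrKO livers 1 to 4 and 6160, 4820, 7474 and 4562 CPM in Bcl6LKOFxrKO livers 5 to 8, that is, 6712 ± 934 and 5754 ± 1343 CPM (SD, n = 4). Liver 7 lay within the FxrKO range, and the totals overlapped. *Cyp3a16*, *Cyp3a41a*, *Cyp3a41b* and *Cyp3a44* together made up at most 0.0103% of the family counts in any FxrKO liver. In Bcl6LKOFxrKO livers 5 to 8 they made up 12.1%, 20.7%, 11.6% and 12.7%. The share of *Cyp3a11* went from 87.8 ± 1.70% to 73.8 ± 5.56% of the family counts (SD, n = 4), and was lowest, at 65.7%, in liver 6.

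**Figure D2:**
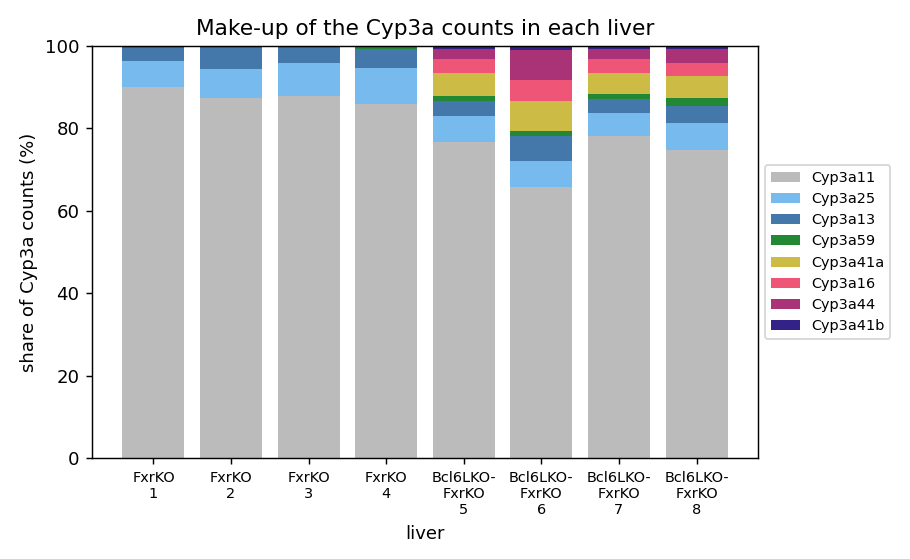
Share of each gene in the summed *Cyp3a* counts (stacked to 100%) in FxrKO livers 1 to 4 and Bcl6LKOFxrKO livers 5 to 8. The FxrKO livers hold almost only *Cyp3a11*, *Cyp3a25* and *Cyp3a13*, and 11.6% to 20.7% of the counts of the Bcl6LKOFxrKO livers come from *Cyp3a41a*, *Cyp3a16*, *Cyp3a44* and *Cyp3a41b*.

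Ratios within a liver do not depend on the scaling between libraries. The ratio of *Cyp3a59* to *Cyp3a25* counts was 0.0771, 0.0625, 0.0676 and 0.0815 in FxrKO livers and 0.207, 0.185, 0.207 and 0.268 in Bcl6LKOFxrKO livers. The means were 0.0722 ± 0.00870 and 0.217 ± 0.0358 (SD, n = 4), with no overlap (exact permutation p = 0.029, the smallest possible). Thus the 2 neighbours with 95.6% of their upstream letters in common were unequally changed. *Cyp3a25* to *Cyp3a11*, by contrast, was 0.0858 ± 0.0135 and 0.0841 ± 0.0107 (SD, n = 4; exact permutation p = 0.857). *Cyp3a13* to *Cyp3a11* was 0.0476 ± 0.0116 and 0.0607 ± 0.0210 (SD, n = 4; exact permutation p = 0.343).

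**Figure D3:**
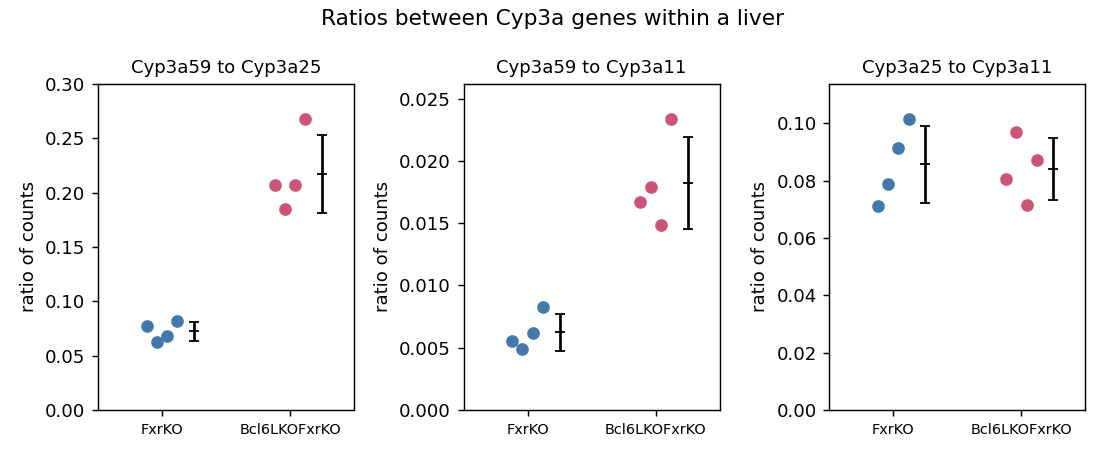
Ratios of counts between pairs of *Cyp3a* genes within each liver (points; bar, mean ± SD of 4 livers), with axes from 0. *Cyp3a59* to *Cyp3a25* and *Cyp3a59* to *Cyp3a11* are higher in every Bcl6LKOFxrKO liver than in any FxrKO liver, and *Cyp3a25* to *Cyp3a11* overlaps between the genotypes.

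Levels between genes were compared per kilobase of transcript (RPKM). In FxrKO livers the order was *Cyp3a11* at 2893 ± 438, *Cyp3a25* at 253 ± 40.7, *Cyp3a13* at 93.9 ± 18.5 and *Cyp3a59* at 18.5 ± 5.13 RPKM (SD, n = 4), each apart from the next in all livers, and the other 4 genes were at or below 3 counts. In Bcl6LKOFxrKO livers *Cyp3a11* still led, at 2102 ± 608 RPKM. The middle of the order was crowded: *Cyp3a25* at 177 ± 29.2, *Cyp3a41a* at 162 ± 28.5, *Cyp3a16* at 124 ± 29.6, *Cyp3a44* at 106 ± 51.2 and *Cyp3a13* at 83.3 ± 14.2 RPKM (SD, n = 4), where each gene overlapped with the next. *Cyp3a59* at 38.1 ± 6.51 and *Cyp3a41b* at 23.4 ± 4.92 RPKM came last and were apart.

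This order depends on how much of each transcript a single-location read can mark. In GENCODE M21 transcripts, 99.7% of the 100-base stretches of *Cyp3a11* were found in no other gene, and the share was 100% for *Cyp3a13*, 99.9% for *Cyp3a16*, and between 93.9% and 94.6% for *Cyp3a25*, *Cyp3a44* and *Cyp3a59*. For *Cyp3a41a* it was 9.18% (180 of 1961) and for *Cyp3a41b* 11.8% (231 of 1965), since 1734 stretches were common to both and the transcripts were 99.9% identical. Per kilobase of such unique starts, a scale chosen after seeing the data, *Cyp3a41a* in Bcl6LKOFxrKO livers was at 1842 ± 324 CPM, overlapping with *Cyp3a11* at 1915 ± 553 CPM (SD, n = 4). *Cyp3a41b* was at 208 ± 43.6 CPM on that scale and *Cyp3a25* at 196 ± 32.5 CPM. The level of the *Cyp3a41* pair relative to *Cyp3a11* is therefore not fixed by these counts, while the comparison of each gene between genotypes does not use its length.

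**Figure D4:**
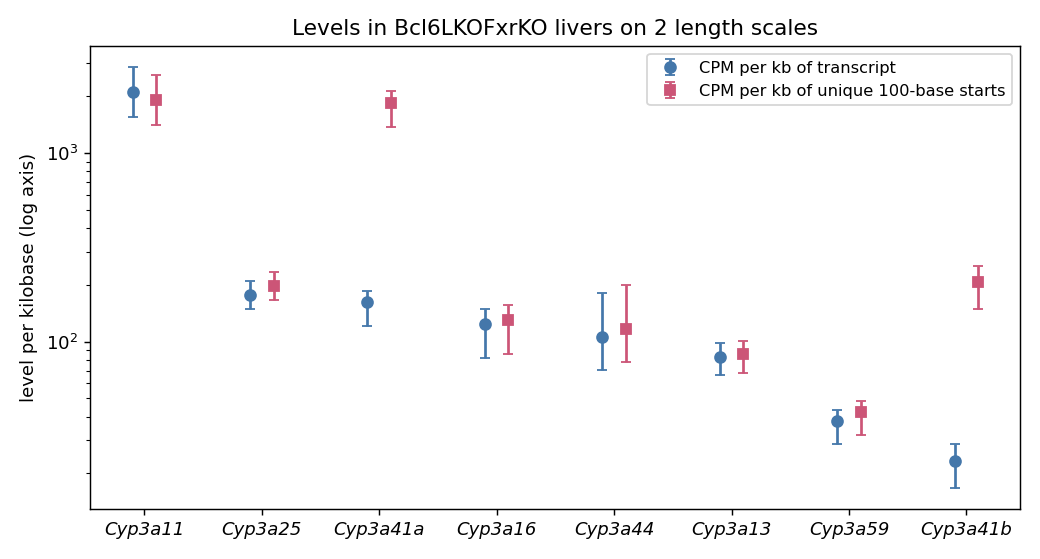
Levels of the *Cyp3a* genes in the 4 Bcl6LKOFxrKO livers (log axis; symbol, mean; bar, lowest to highest liver), as CPM per kilobase of transcript (circles) and per kilobase of starts whose 100 bases occur in no other gene (squares). The scales differ for *Cyp3a41a*, from 162 to 1842, and for *Cyp3a41b*, from 23.4 to 208, and are close for the other genes.

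The genes with the most similar profile were found among 9070 genes with at least 50 counts on average, by the root mean square (RMS) difference of log2(CPM + 0.5), centred on each gene's mean over the 8 livers. For *Cyp3a16*, *Cyp3a41a* and *Cyp3a44* they included *Sult2a2*, a hydroxysteroid sulfotransferase, with RMS differences of 0.32 for *Cyp3a16*, 0.43 for *Cyp3a41a* and 0.52 for *Cyp3a44*. *Sult2a2* was at 0.312, 0, 0 and 0.0945 CPM in FxrKO livers and at 229, 223, 229 and 231 CPM in Bcl6LKOFxrKO livers. Those of *Cyp3a41b* were the transporter genes *Slc22a26* and *Slc22a2*, at 0.42 and 0.54. For *Cyp3a59* they were *Qpct* and *Rtn4*, at 0.17 and 0.18. *Cyp3a25* had *Cflar* and *Simc1*, both at 0.09, *Cyp3a11* had *Fam92a* and *Hs2st1*, at 0.14 and 0.15, and *Cyp3a13* had *Ccdc125* and *Tgoln2*, at 0.07 and 0.08. Profiles dominated by a difference between genotypes will be close to any gene with a difference of the same size.

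Of 73 other genes that start within 500 kb of a member, 46 were tested, of which 5 rose and 1 fell, where 16.2% of all tested genes rose and 13.5% fell. Their median log2 fold change was -0.0016, against 0.01 for all tested genes. These counts pool the surroundings of the cluster with those of *Cyp3a13*, 7515 kb away. The higher ones were *Zfp655* and *Arpc1b* near the cluster and *Nyap1*, *Pcolce* and *Tsc22d4* near *Cyp3a13*. The lower one, *Zkscan1*, also lies near *Cyp3a13*. *Nyap1* passed the expression filter only through the Bcl6LKOFxrKO livers, so it had to differ. *Zfp655*, a zinc finger gene, went from 27.9 ± 1.40 to 62.9 ± 14.2 CPM (SD, n = 4; log2 fold change 1.17, edgeR adjusted p = 7.40e-05). *Arpc1b*, an actin nucleation subunit, went from 32.1 ± 4.25 to 58.0 ± 14.4 CPM (SD, n = 4). With total counts alone 5 rose and 6 fell. *Cyp3a57*, a further family gene that was not among the 8 and too low to be tested, had 0 counts in every FxrKO liver and 7, 3, 8 and 13 counts in Bcl6LKOFxrKO livers 5 to 8. It is named here after its values were seen.

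In a list of genes known to act on *Cyp3a* transcription, those that changed were lower. Regulators of growth hormone signalling and sex-biased transcription form a separate list, given below, in which most of the called genes rose. The absence of rises therefore holds for the present list only. Of 22 listed regulators 21 were tested, 10 fell and 0 rose by edgeR's test, where 13.5% of all tested genes fell. The 10 include *Nr1h4*, the gene deleted in both groups, whose remaining transcript is no measure of FXR. The number of rises was also 0 at an unadjusted p under 0.05, by DESeq2 and by limma voom, where 12, 11 and 13 fell. Their median log2 fold change was -0.47 against 0.01 for all tested genes. The list mixes activators with corepressors such as SHP (*Nr0b2*), so the counts and the median give no net effect on *Cyp3a* transcription. *Nr1i2*, the gene of PXR, was at 57.7 ± 9.67 and 47.9 ± 8.40 CPM (SD, n = 4), with overlap (log2 fold change -0.27, SE 0.15, edgeR adjusted p = 0.197). *Nr1i3*, the gene of CAR, fell from 157 ± 26.4 to 100 ± 31.7 CPM (SD, n = 4; log2 fold change -0.64, SE 0.20, edgeR adjusted p = 0.0338), with overlap. *Rxra*, their partner, fell from 604 ± 25.1 to 400 ± 63.4 CPM (SD, n = 4; log2 fold change -0.60, SE 0.13, edgeR adjusted p = 0.00365), without overlap.

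The 3 regulators with the smallest adjusted p were *Nr0b2*, *Foxa1* and *Ppara*. *Nr0b2*, the gene of the corepressor SHP and a known target of FXR, was at 13.9, 16.6, 10.9 and 7.94 CPM in FxrKO livers and at 1.21, 1.33, 0.486 and 0.453 CPM in Bcl6LKOFxrKO livers (log2 fold change -3.85, SE 0.34, edgeR adjusted p = 4.14e-06). *Foxa1*, whose protein binds TGTTTAC, fell from 16.5 ± 3.66 to 5.36 ± 2.21 CPM (SD, n = 4; edgeR adjusted p = 0.000404). *Ppara*, the fatty acid receptor, fell from 258 ± 38.1 to 130 ± 33.9 CPM (SD, n = 4; edgeR adjusted p = 0.00104). With total counts alone 14 fell.

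**Figure D5:**
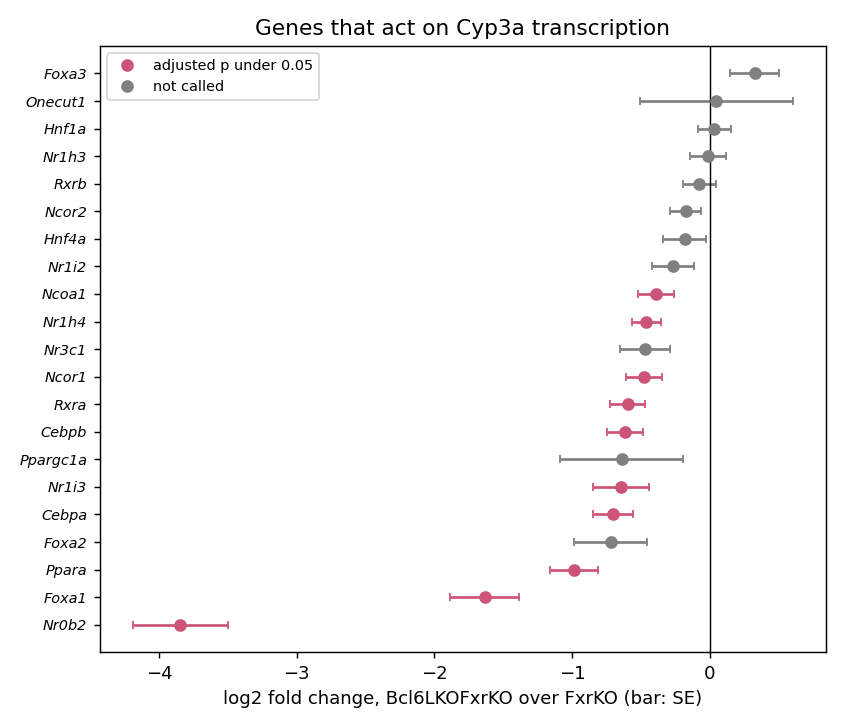
Log2 fold change (Bcl6LKOFxrKO over FxrKO, points with bars ± SE) of the 21 tested genes in the list of *Cyp3a* regulators, with those at an adjusted p under 0.05 in red. Regulators of growth hormone signalling and sex-biased transcription were listed apart and are not drawn. All 10 that passed, from *Nr0b2* at -3.85 to *Ncoa1* at -0.39, lie below 0, and *Nr1i2* at -0.27 did not pass.

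Other target genes of PXR and CAR were split in direction. Of 25 tested genes, 10 rose and 6 fell, where 16.2% of all tested genes rose and 13.5% fell. The median log2 fold change was 0.59, against 0.01 for all tested genes. *Sult2a1*, a hydroxysteroid sulfotransferase and a paralogue of *Sult2a2*, was at 0, 0, 0 and 0.189 CPM in FxrKO livers and at 685, 697, 756 and 712 CPM in Bcl6LKOFxrKO livers (edgeR adjusted p = 1.01e-11). It passed the expression filter only through the Bcl6LKOFxrKO livers, so that if tested at all it had to differ. Its place in the count of rises is therefore no support for a change of the list. *Aldh1a7*, an aldehyde dehydrogenase, rose from 402 ± 46.4 to 1420 ± 85.4 CPM (SD, n = 4; edgeR adjusted p = 3.28e-07), and *Abcc4*, an efflux pump, from 6.39 ± 0.862 to 39.0 ± 12.3 CPM (SD, n = 4; edgeR adjusted p = 3.13e-06). *Abcc3*, another efflux pump, fell from 397 ± 19.5 to 212 ± 40.9 CPM (SD, n = 4; edgeR adjusted p = 0.000427). *Gstt1*, a glutathione transferase, and *Ces2a*, a carboxylesterase, were the other leading falls, at log2 fold changes of -0.78 (SE 0.13) and -0.77 (SE 0.13). *Cyp2b10*, the usual readout of CAR, was at 24.1, 12.1, 2.25 and 14.0 CPM in FxrKO and 37.6, 26.7, 27.4 and 29.3 CPM in Bcl6LKOFxrKO livers, without overlap but short of the threshold (log2 fold change 1.20, SE 0.52, edgeR adjusted p = 0.124).

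Of 14 tested genes of electron transfer to P450 enzymes and of haem synthesis and breakdown, 1 rose and 3 fell. That share was near the 29.7% called among all tested genes, and the median log2 fold change was -0.01. *Por*, the reductase that serves all microsomal P450 enzymes, was at 459 ± 127 and 525 ± 161 CPM (SD, n = 4; log2 fold change 0.19, SE 0.23, edgeR adjusted p = 0.567). *Cyb5r3*, which reduces cytochrome b5, rose from 751 ± 95.7 to 1227 ± 245 CPM (SD, n = 4; edgeR adjusted p = 0.00426). *Cpox* and *Fech*, enzymes of haem synthesis, fell from 129 ± 9.58 to 30.2 ± 3.45 CPM and from 186 ± 16.0 to 115 ± 14.2 CPM (SD, n = 4; edgeR adjusted p = 5.17e-08 and 0.000765). *Cyb5b*, an outer mitochondrial cytochrome b5, also fell, with a log2 fold change of -0.35 (SE 0.11).

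Among 11 tested genes of growth hormone signalling and sex-biased transcription, 4 rose and 1, *Bcl6* itself, fell. Of all tested genes 16.2% rose and 13.5% fell. *Ghr*, the growth hormone receptor, rose from 421 ± 37.0 to 2025 ± 340 CPM (SD, n = 4; log2 fold change 2.27, SE 0.15, edgeR adjusted p = 2.10e-07). *Cux2*, a repressor of male-biased genes that is high in female liver, was at 0.312, 0.374, 2.15 and 4.72 CPM in FxrKO livers and at 70.5, 96.4, 96.5 and 85.5 CPM in Bcl6LKOFxrKO livers (edgeR adjusted p = 0.000242). *Trim24*, a transcriptional cofactor, rose from 23.2 ± 4.25 to 54.1 ± 5.84 CPM (SD, n = 4; edgeR adjusted p = 4.29e-05). Of the transcripts of the fetal liver only *Igf2* and *Afp* could be tested: *Igf2* rose to 6.17 ± 2.55 from 0.340 ± 0.177 CPM (SD, n = 4; edgeR adjusted p = 2.48e-05), and *Afp* was at 2.24 ± 1.04 and 1.70 ± 0.480 CPM and did not pass. *Igf2* entered the tests only through the Bcl6LKOFxrKO livers, so it had to differ and its p-value adds no support. *Cux2* too would not have passed the expression filter on the FxrKO livers alone.

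Other *Cyp* genes fell more often than they rose. Of 92 others with a symbol made of Cyp, a number, a letter and a number, 59 were tested, and 9 rose and 29 fell. This rule on symbols does not cover the whole superfamily. Among all tested genes 16.2% rose and 13.5% fell, so the share of rises was near that of all tested genes. The median log2 fold change was -0.36, against 0.01 for all tested genes. The rises with the smallest adjusted p were *Cyp2g1*, *Cyp26a1*, the retinoic acid hydroxylase, and *Cyp2c40*, a female-biased gene that went from 23.3 ± 8.96 to 170 ± 41.4 CPM (SD, n = 4; edgeR adjusted p = 4.24e-05). *Cyp2g1* went from 4.79 ± 1.02 to 24.7 ± 3.17 CPM and *Cyp26a1* from 17.9 ± 4.43 to 81.5 ± 18.3 CPM (SD, n = 4). The leading falls were *Cyp2c67* from 310 ± 21.6 to 27.3 ± 5.40 CPM, *Cyp2d13* from 275 ± 18.1 to 34.8 ± 9.04 CPM and *Cyp2c50* from 919 ± 81.1 to 82.9 ± 27.7 CPM (SD, n = 4; log2 fold changes -3.51, -2.99 and -3.47). In number of counts, none of the called falls reached the level of *Cyp3a11* except that of *Cyp2e1*, which went from 10663 ± 1728 to 2815 ± 574 CPM (SD, n = 4).

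Markers of stellate cells were higher in the Bcl6LKOFxrKO livers, and those of cholangiocytes did not move together. The summed level of 7 stellate cell markers was between 78.8 and 93.7 CPM in FxrKO and between 150 and 169 CPM in Bcl6LKOFxrKO livers, and 5 of the 7 tested rose. The ranges for cholangiocyte markers were 41.4 to 66.0 and 74.3 to 134 CPM, where 2 of 4 tested rose. Most of that sum was *Spp1*, which rose from 43.3 ± 7.50 to 87.1 ± 25.0 CPM (SD, n = 4). *Krt19* also rose and *Epcam* did not pass. *Sox9* went the other way and did not pass (log2 fold change -0.81, SE 0.32, edgeR adjusted p = 0.0773). The ranges for macrophage markers were 335 to 462 and 414 to 746 CPM, where 1 of 7 rose. For endothelial markers they were 129 to 178 and 165 to 224 CPM, where 1 of 6 rose. The macrophage and endothelial ranges overlapped, and their shares of risen genes were near the 16.2% of all tested genes. Of the enterocyte markers, relevant because *Cyp3a13* is also an intestinal gene, *Sis* and *Alpi* had no count in any liver. *Fabp2*, which liver also expresses, fell. *Vil1* and *Cdh17* were too low to be tested. *Vil1* had 6, 6, 10 and 12 counts in FxrKO and 8, 5, 3 and 5 counts in Bcl6LKOFxrKO livers. *Cdh17* had 0 counts in every FxrKO liver and 6, 6, 3 and 5 counts in the Bcl6LKOFxrKO livers. Of 7 hepatocyte markers *Alb* rose, *Ttr* fell and 5 did not pass, and with total counts alone 4 fell. The part of cell composition in the *Cyp3a* differences was not tested.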

How the data were processed

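Liver RNA of 4 FxrKO and 4 Bcl6LKOFxrKO males was analysed. The authors made stranded poly(A) libraries, mapped the 100-base single-end reads with STAR 2.5.2 on mm10 so that a read with several places was dropped, and deposited HOMER 4.10 exon read counts without normalization (versions per the submitters' processing notes). The counting options name no strand, so overlapping and antisense genes are uncertain. The labels name the libraries 1 to 8 and state no pairing, litter or day. A further number in the titles is consecutive for livers 1 and 6 and runs without a gap over livers 2, 7, 3, 8 and 4. The number of liver 5 is apart from the others, and what these numbers mark is not stated. The p-values therefore measure the spread between these livers.

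Counts were analysed with edgeR 4.0.16 in R 4.3.3 (filterByExpr, TMM, robust quasi-likelihood fit with genotype alone) with p-values adjusted by Benjamini-Hochberg across 12340 genes, and genes under an adjusted p of 0.05 were called. The code was tested on simulated data. Where no FxrKO liver had over 3 counts, folds were taken against 3 counts per library. Alternatives were DESeq2 1.42.0 (the authors' tool), limma voom 3.58.1, other scalings and filters, and each liver left out.

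The *Cyp3a* genes and all lists were chosen with earlier results of these data known. Named from each list were the 3 genes of smallest adjusted p in either direction, where called, with *Nr1i2*, *Nr1i3*, *Rxra* and *Por* in any case, the 2 most similar profiles of each member, and the called genes within 500 kb. *Cyp2b10*, *Cyp2e1*, *Cyp3a57*, *Afp*, *Epcam*, *Sox9*, *Vil1* and *Cdh17* were named after their values were seen. A gene named by these rules is left out here.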

Additional observations from a re-analysis of the deposited data

Results flagged for a closer look

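Within the Bcl6LKOFxrKO group *Cyp3a44* in liver 6 stood apart from the other 3 livers: its gap to the nearest liver was 0.832 of the whole range of the group, above Dixon's limit for a group of 4. Liver 6 had 2917 counts against 1374, 1793 and 1727 in livers 5, 7 and 8. Of 14 such checks over the *Cyp3a* genes and their total, this was the 1 flagged, and chance flags about 1 in 20.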

How the results depend on the processing

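The rises of *Cyp3a16*, *Cyp3a41a*, *Cyp3a41b* and *Cyp3a44* passed under every alternative in which these genes could be tested, with adjusted p of at most 0.000195. These genes entered the tests only through the Bcl6LKOFxrKO livers, so they had to differ and their passing adds no support. Under a filter of at least 10 counts in every liver they were not tested, so that 1 member was called higher there. *Cyp3a59* passed under all 15 alternatives, with log2 fold changes from 0.88 to 1.22. *Cyp3a13* passed under none. *Cyp3a25* lost its call without liver 4, and the log2 fold change ranged from -0.61 to -0.41 with 1 liver left out. For *Cyp3a11* that range was -0.64 to -0.35, and it passed without liver 7 and with total counts alone (log2 fold change -0.61, adjusted p = 0.0355). The number of members called lower was accordingly 2 with total counts alone and between 0 and 2 with 1 liver left out, and the number of all genes called lower was 2956 with total counts alone. The exact permutation p of *Cyp3a59* was 0.057 with total counts alone and that of *Cyp3a25* 0.029 with total counts alone and with RLE size factors. Subtracting *Cyp3a41b* from *Cyp3a41a*, added after seeing the data, changed no call. No paired analysis was possible because the labels give the libraries the names 1 to 8, which the groups do not share, and do not state what the further number in the titles marks.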
